A study of Mus musculus with 9 samples.

Results

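Chemokines and their receptors were followed in whole mouse lung at day 21, in the 3 groups of a bleomycin study. Members were chosen by gene symbol: genes named Ccl, Cxcl, Ccr, Cxcr or Ackr with a number, together with Xcl1, Cx3cl1 and Cx3cr1. The members and the gene lists used below were chosen with earlier results of these data known. Ccl19, the Ccl21 genes, Cxcl13, Ccr7, Cxcr5, Cxcr2 and Ackr1 were set aside. The rule found 58 of the 32671 genes in the table, 34 of them ligand genes, 18 receptor genes and 6 pseudogenes of Ccl19. All mice were wild-type C57BL/6 animals. Control mice received saline, bleomycin mice were challenged with bleomycin, a drug that scars the lung, and LNP mice were challenged with bleomycin and treated with mCas9/gSting@DOPS LNPs, inhalable lipid nanoparticles that carry Cas9 and a guide against Sting. Each group had 3 libraries of poly(A) RNA with 56047830 to 69404903 counts per library. No group given particles without the guide was analysed here, so the particle and the guide cannot be told apart.

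Chemokines are small secreted proteins that guide leukocytes along gradients. They act on G protein-coupled receptors, and families are named for the spacing of their first cysteines (CC, CXC, CX3C and XC). In the lung, CC ligands of Ccr2 recruit monocytes, CXC ligands with a Glu-Leu-Arg motif recruit neutrophils, and the CXCR3 ligands recruit effector T and NK cells. Other members are made by resting epithelium, endothelium or stroma, and atypical receptors bind chemokines without the usual G protein signal and remove them.

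The RNA carried its labelled tissue's markers: 7 lung epithelial markers summed to 13660 to 54600 CPM (counts scaled to library size) in every library. The third LNP library stood apart. Its 10 skeletal muscle markers summed to 8965 CPM against 8.86 to 56.9 CPM elsewhere, and its squamous epithelial markers to 1904 CPM against 2.56 to 40.0 CPM. For the members described, differences in LNP lung are therefore given with and without that library. As a look at the targeted gene, Sting1 RNA stood at 18.4, 23.9 and 20.9 CPM in control, 53.8, 41.5 and 40.5 CPM in bleomycin and 51.8, 61.98 and 44.2 CPM in LNP libraries. LNP and bleomycin libraries overlapped (log2 difference 0.22 ± 0.17, 95% interval -0.17 to 0.61, edgeR adjusted p = 0.48), and RNA level does not check how much DNA was edited. The labels do not say whether libraries of a group came from separate animals, so the p-values measure the spread between these libraries. In whole lung, fewer cells of a type and less RNA per cell cannot be told apart.

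Per unit of transcript length (FPKM), the most abundant member in control lung was Cxcl15, a neutrophil attractant made by mouse lung epithelium, at 536 ± 61.3 FPKM (SD, n = 3). Next came Cxcl14 at 84.95 ± 17.4, Cxcl17 at 57.8 ± 4.38 and Ccl6 at 42.9 ± 4.83 FPKM. Cxcl12, Cxcr4 and Cxcl16 followed at 30.8 ± 2.56, 28.5 ± 1.27 and 27.8 ± 3.85 FPKM, closer to each other than their spread. In bleomycin lung Ccl6 stood at 161 ± 50.5 and Cxcl15 at 159 ± 25.3 FPKM, and these levels did not differ beyond their spread. Ccl2 had 0.474 ± 0.249 FPKM in control lung, rank 36 of the 58 members, and 17.3 ± 7.32 FPKM in bleomycin lung, rank 12. The ranking in LNP lung began with Cxcl15 at 464 ± 297 and Ccl6 at 135 ± 47.5 FPKM.

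The first comparison asked how bleomycin lung differed from saline lung. Of 53 members tested, 17 rose and 13 fell at an adjusted p under 0.05 (edgeR's quasi-likelihood test with Benjamini-Hochberg adjustment over all 20794 tested genes). Over all tested genes 15.2% rose and 18.5% fell, against 32.1% and 24.5% of the members. These shares of all tested genes also stand beside the counts of roles, markers and pathway genes given below for this comparison. In either direction 33.7% of all tested genes were called. DESeq2 called 18 members higher and 13 lower, beside 19.9% and 20.6% of the genes it tested. The median log2 fold change was 0.31 over members and -0.05 over all tested genes. Among ligand genes 13 of 32 rose and 4 fell, with a median of 0.74, and among receptor genes 4 of 16 rose and 8 fell, with a median of -1.12. Ligands of Ccr2, led by Ccl2 and Ccl7, were at one end, and the decoy receptor Ackr4 and several receptors of T and NK cells were at the other.

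**Figure D1:**
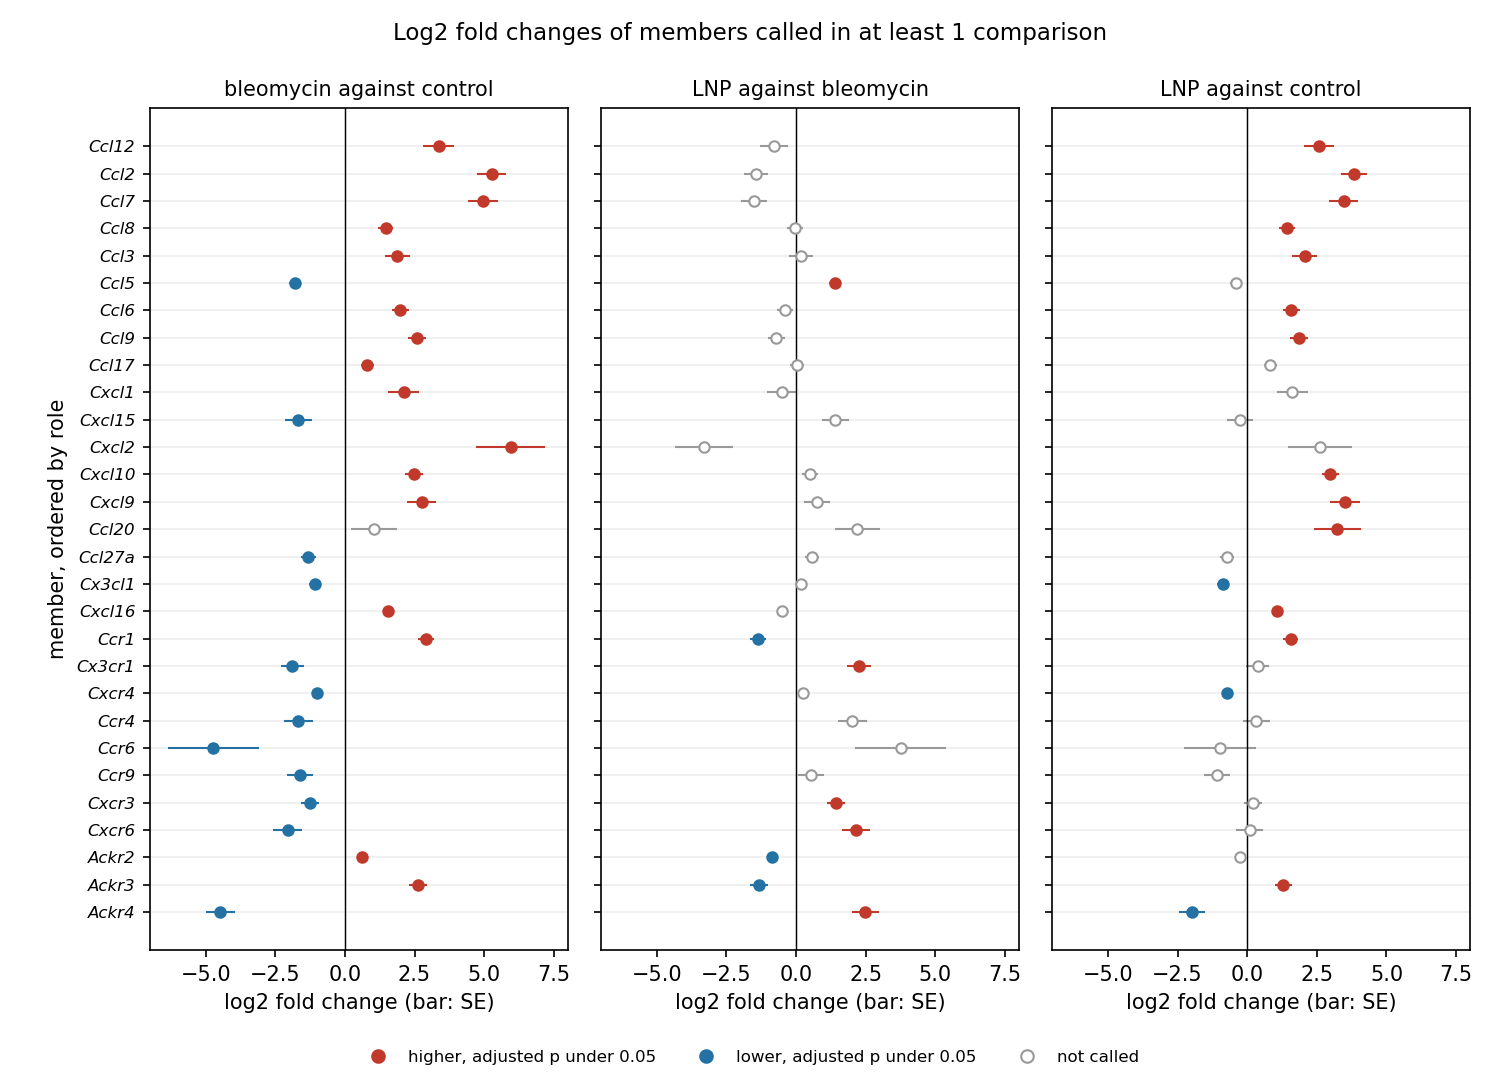
Log2 fold changes of ligand and receptor genes called in at least 1 comparison, with SE, in 3 panels for bleomycin against control, LNP against bleomycin and LNP against control; filled points were called at an adjusted p under 0.05 and open points were not. In the first panel Cxcl2, Ccl2 and Ccl7 lie furthest to the right at 5.95, 5.27 and 4.97, and Ccr6 and Ackr4 furthest to the left at -4.73 and -4.48.

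All 4 genes listed here as ligands of Ccr2, the receptor that brings monocytes into tissue, rose in bleomycin lung. Whether mouse Ccl8, the last of the 4, acts through Ccr2 or through another receptor such as Ccr8 was not tested. Ccl2 (ENSMUSG00000035385, chr11:81926397-81928279, plus strand), the main monocyte attractant, had 0.897, 0.303 and 0.572 CPM in control replicates 1 to 3, 32.2, 24.5 and 11.6 CPM in bleomycin and 6.04, 10.8 and 8.41 CPM in LNP libraries. The 3 groups did not overlap, with LNP between the others. Ccl2 rose by 5.27 ± 0.51 on the log2 scale (SE), 38.6-fold, with an edgeR adjusted p of 0.0002. Ccl7 (ENSMUSG00000035373, chr11:81936538-81938351, plus strand), a ligand of Ccr1, Ccr2 and Ccr3, had 0.816, 0.530 and 0.815 CPM in control, 39.01, 19.99 and 9.05 CPM in bleomycin and 6.33, 11.1 and 6.46 CPM in LNP libraries. It rose by 4.97 ± 0.54 (edgeR adjusted p = 0.00031), and LNP replicate 2 lay above the lowest bleomycin library. Ccl12 (ENSMUSG00000035352, chr11:81992671-81994226, plus strand), a mouse counterpart of Ccl2, had 0.555, 0.908 and 0.429 CPM in control, 11.5, 5.79 and 2.33 CPM in bleomycin and 3.58, 4.21 and 3.48 CPM in LNP libraries. Its rise was 3.37 ± 0.55 (edgeR adjusted p = 0.0018), and all LNP libraries lay inside the bleomycin range. Ccl8 (ENSMUSG00000009185, chr11:82006011-82007625, plus strand) had the smallest rise of the 4, 1.46 ± 0.28 (edgeR adjusted p = 0.0042), from 2.37, 3.51 and 2.10 CPM in control to 9.32, 7.51 and 5.12 CPM in bleomycin, with 8.0, 6.46 and 6.93 CPM in LNP libraries.

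Markers of inflammatory monocytes and macrophages were also mostly higher in bleomycin lung. Of 18 such markers 15 rose and 1 fell, and none was at 0 in any group. Their sum was 1390 to 1798 CPM in control libraries, 5760 to 6791 CPM in bleomycin and 3359, 4323 and 9205 CPM in LNP replicates 1 to 3. LNP replicate 3 thus had the highest sum of all libraries, while its Ccl2 and Ccl7 lay below every bleomycin library. The part of these markers in the chemokine changes was not tested. Within the bleomycin group the raised members shared an order: replicate 1 was the highest of the 3 libraries for 15 of the 17 and replicate 3 the lowest for 16. Over all 3159 raised genes, replicate 1 was highest for 67.9% and replicate 3 lowest for 65.3%. The monocyte and macrophage sum had the opposite order, at 5760, 6433 and 6791 CPM in bleomycin replicates 1 to 3.

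Of the 5 other inflammatory CC ligands, 3 rose, Ccl5 fell and Ccl4 was not called. Ccl6 (ENSMUSG00000018927, chr11:83478708-83483913, minus strand), a Ccr1 ligand of mouse macrophages, had 91.6, 78.4 and 80.9 CPM in control, 456, 326 and 217 CPM in bleomycin and 285, 318 and 154 CPM in LNP libraries. It rose by 1.99 ± 0.31 (edgeR adjusted p = 0.0015) and had no overlap between bleomycin and control. Ccl9 (ENSMUSG00000019122, chr11:83463745-83469462, minus strand), another Ccr1 ligand, had 18.0, 17.6 and 16.5 CPM in control, 149, 102 and 61.5 CPM in bleomycin and 62.8, 85.3 and 42.95 CPM in LNP libraries. Its control libraries were nearly equal, all others lay above them, and it rose by 2.59 ± 0.33 (edgeR adjusted p = 0.00059). Ccl3 (ENSMUSG00000000982, chr11:83538670-83540181, minus strand), a macrophage ligand of Ccr1, was scarcer, at 0.865, 0.742 and 0.386 CPM in control, 3.03, 2.81 and 1.51 CPM in bleomycin and 3.19, 3.44 and 1.66 CPM in LNP libraries, and rose by 1.88 ± 0.44 (edgeR adjusted p = 0.0097). Ccl4, which lies beside Ccl3 in the genome, had 1.41 ± 0.507 CPM (SD, n = 3) in control and 1.08 ± 0.487 CPM in bleomycin. Its difference was -0.38 ± 0.46, with a 95% interval of -1.41 to 0.66, and its groups overlapped.

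Ccl5 (ENSMUSG00000035042, chr11:83416604-83421344, minus strand), a chemokine made largely by T and NK cells, went the other way. It had 21.3, 19.5 and 29.1 CPM in control, 6.82, 6.69 and 6.67 CPM in bleomycin and 18.9, 20.4 and 13.2 CPM in LNP libraries. The bleomycin libraries were nearly equal and lay below every other library. Ccl5 fell by 1.79 ± 0.21 on the log2 scale, 3.47-fold (edgeR adjusted p = 0.00041). All 13 T cell markers and all 9 NK cell markers fell in the same comparison, and none of them was at 0 in any group. The T cell markers summed to 91.0 to 99.0 CPM in control libraries, 25.2 to 28.0 CPM in bleomycin and 92.3 to 114 CPM in LNP libraries. The NK markers summed to 60.3 to 74.0 CPM in control, 4.05 to 4.75 CPM in bleomycin and 27.2, 28.0 and 4.93 CPM in LNP replicates 1 to 3. Their part in the fall of Ccl5 was not tested.

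Among 5 genes listed as ligands of Ccr3, Ccr4 and Ccr8, receptors of eosinophils and of Th2 and regulatory T cells, 1 rose. Ccl8 was not placed in this list. Ccl17 (ENSMUSG00000031780, chr8:95537081-95538664, plus strand), a Ccr4 ligand of dendritic cells, had 3.02, 4.93 and 3.70 CPM in control, 7.34, 7.43 and 5.56 CPM in bleomycin and 7.22, 7.69 and 5.82 CPM in LNP libraries, a rise of 0.80 ± 0.24 (edgeR adjusted p = 0.029). Of 11 dendritic cell markers, 2 rose and 7 fell in the same comparison, with a median of -1.14 and none at 0 in any group. Their sum was 134.4 to 147.5 CPM in control, 147.9 to 166.0 CPM in bleomycin and 251.2, 253.1 and 137.2 CPM in LNP libraries, and their part in the rise of Ccl17 was not tested. Ccl22 (ENSMUSG00000031779, chr8:95472218-95478327, plus strand), the other Ccr4 ligand, had 8.52, 14.6 and 9.45 CPM in control and 10.98, 8.51 and 6.76 CPM in bleomycin, which overlapped, and 28.4, 32.5 and 10.6 CPM in LNP libraries. Its bleomycin difference was -0.31 ± 0.39 (95% interval -1.17 to 0.55). The eosinophil attractants Ccl11 and Ccl24 and the Ccr8 ligand Ccl1 were not called, at 3.15 ± 2.53, 1.16 ± 0.368 and 0.113 ± 0.0605 CPM (SD, n = 3) in bleomycin lung.

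The 5 CXC ligands of the neutrophil-attracting group split. Cxcl2 (ENSMUSG00000058427, chr5:91051730-91053797, plus strand), an early neutrophil attractant, had 0, 0.242 and 0 CPM in control, 8.80, 5.46 and 1.07 CPM in bleomycin and 0.347, 0.540 and 0.645 CPM in LNP libraries. Only 1 control library had any count, and the 3 groups did not overlap. Cxcl2 rose by 5.95 ± 1.23 on the log2 scale, the largest rise of any member in this comparison (edgeR adjusted p = 0.0057), with a 95% interval of 3.20 to 8.70. Cxcl1 (ENSMUSG00000029380, chr5:91039100-91040974, plus strand), a second Cxcr2 ligand, rose by 2.11 ± 0.56 (edgeR adjusted p = 0.018), with 0.375, 0.666 and 0.472 CPM in control, 3.19, 2.51 and 0.846 CPM in bleomycin and 1.05, 2.57 and 1.04 CPM in LNP libraries. Cxcl3 and Cxcl5 were not called: they had 0.894 ± 0.641 and 1.47 ± 0.817 CPM in bleomycin lung, and differences of 2.03 ± 0.88 and -0.60 ± 0.79.

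Cxcl15 (ENSMUSG00000029375, chr5:90942393-90950926, plus strand), an abundant product of resting lung epithelium, fell. It had 1375, 1219 and 1122 CPM in control, 469, 382 and 309.8 CPM in bleomycin and 1446, 1369 and 275 CPM in LNP libraries. Bleomycin lay below control without overlap, LNP replicates 1 and 2 were at the level of control, and LNP replicate 3 was the lowest of all 9 libraries. The fall was 1.68 ± 0.49 (edgeR adjusted p = 0.025). Of 9 type 2 epithelial markers, 6 fell. Their sum was 24510 to 32980 CPM in control, 9024 to 10700 CPM in bleomycin, and 23130, 19200 and 7877 CPM in LNP replicates 1 to 3, and its part in the fall of Cxcl15 was not tested. Of 13 neutrophil markers, 6 rose and 2 fell in bleomycin lung, with a median of 0.82, so the list went both ways. Their sum was 279.9 to 445.8 CPM in control and 496.9 to 1091 CPM in bleomycin libraries. Retnlg, on the higher side, had 11.96 ± 2.28 CPM (SD, n = 3) in control and 111 ± 54.6 CPM in bleomycin. The 2 that fell are not named here.

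Cxcl1, Cxcl2, Cxcl3 and Cxcl15 lie in a single cluster on chromosome 5, and the 110 bases before their starts are printed here because Cxcl1 and Cxcl2 rose while Cxcl15 of the same cluster fell. Sequences are from RefSeq's promoter table (GRCm38.p6, all plus strand, written 5′ to 3′), and capitals mark letters that match the core of NF-kB sites (GGG, 3 of any base, T, 1 of any base, CC) on either strand. Overlapping matches are joined.
Cxcl1, chr5:90891135-90891244: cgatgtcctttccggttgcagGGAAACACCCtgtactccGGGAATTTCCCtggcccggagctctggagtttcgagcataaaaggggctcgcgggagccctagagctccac
Cxcl2, chr5:90903789-90903898: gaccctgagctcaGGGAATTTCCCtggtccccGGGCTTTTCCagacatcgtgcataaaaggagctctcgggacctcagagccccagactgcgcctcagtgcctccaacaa
Cxcl3, chr5:90785991-90786100: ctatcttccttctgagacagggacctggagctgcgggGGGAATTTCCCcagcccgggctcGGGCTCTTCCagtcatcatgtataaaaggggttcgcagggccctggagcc
Cxcl15, chr5:90794424-90794533: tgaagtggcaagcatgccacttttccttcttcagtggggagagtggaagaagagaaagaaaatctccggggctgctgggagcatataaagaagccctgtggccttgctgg
Cxcl1, Cxcl2 and Cxcl3 each held 2 stretches of matching letters, and in each gene one of these was 11 bases long. The stretch began 71 bases before the start in Cxcl1, 97 in Cxcl2 and 73 in Cxcl3. No match lay in the 300 bases searched around the start of Cxcl15. Cxcl5 of the same cluster had no window to search. A match is a description of letters, not a site shown to be bound.

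Both tested CXCR3 ligands, which attract activated T and NK cells, rose. Cxcl10 (ENSMUSG00000034855, chr5:92494497-92496741, minus strand) had 0.979, 1.77 and 1.86 CPM in control, 10.9, 9.0 and 5.92 CPM in bleomycin and 13.03, 12.7 and 10.99 CPM in LNP libraries. Each LNP library was above each bleomycin library, and each bleomycin library above each control library. Against control its level in bleomycin lung was 5.59-fold (edgeR adjusted p = 0.00051). Cxcl9 (ENSMUSG00000029417, chr5:92469206-92475938, minus strand) had 0.685, 0.394 and 1.46 CPM in control, 7.21, 6.10 and 3.81 CPM in bleomycin and 13.6, 5.04 and 10.2 CPM in LNP libraries, and rose by 2.75 ± 0.52 (edgeR adjusted p = 0.0038). Cxcl11 did not reach the count filter, with 9 counts in bleomycin lung against none in control.
The Cxcl10 promoter is shown because letters of interferon and NF-kB sites sit together in it (RefSeq GRCm38.p6, minus strand, chr5:92348890-92349109); capitals mark first the letters of an interferon-stimulated response element (GAAA, any 2 bases, GAAA) and then 2 stretches of NF-kB letters.
Cxcl10: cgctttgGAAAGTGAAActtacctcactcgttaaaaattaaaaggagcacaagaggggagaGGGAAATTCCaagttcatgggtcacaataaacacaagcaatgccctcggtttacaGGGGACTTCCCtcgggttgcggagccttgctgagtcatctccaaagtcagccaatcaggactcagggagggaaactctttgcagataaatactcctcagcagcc
These stretches began 213, 159 and 104 bases before the start. The interferon element's letters were present in 3.99% of 27025 genes with a RefSeq window. Among members they were present in 2 of 39 with a window, Cxcl10 and Cxcl14, and not in Cxcl9.

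Of 8 genes of the interferon signal that induces the CXCR3 ligands, 2 rose and 2 fell in bleomycin lung, with a median of -0.35. Socs3, a feedback inhibitor of cytokine signals, rose by 3.01 ± 0.34 (edgeR adjusted p = 0.00034), and Ifngr2, a subunit of the interferon-gamma receptor, by 0.71 ± 0.15 (0.0071). Irf1, an interferon-induced transcription factor, fell by 1.43 ± 0.24 (0.0019). Ifng had 0.474 ± 0.0620 CPM (SD, n = 3) in control and 0.0752 ± 0.0937 CPM in bleomycin and was not called (difference -2.64 ± 1.23). Cxcl9 and Cxcl10 were thus higher, and Irf1 lower, in the same bleomycin libraries.

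Of 20 NF-kB factors and feedback genes, 11 rose and 1 fell, with a median of 0.63. Tnip3, an inhibitor of NF-kB, went from 1.16 ± 0.495 CPM (SD, n = 3) in control to 7.12 ± 0.728 CPM, and Nfkbie, another inhibitor, from 10.6 ± 1.26 to 24.5 ± 2.34 CPM. Relb, a subunit of NF-kB, rose by 1.19 ± 0.18 (edgeR adjusted p = 0.0013), and Tnfaip3, a feedback enzyme, by 1.47 ± 0.23 (0.0015). Il1b, a cytokine that induces chemokines, had 9.15, 10.4 and 7.99 CPM in control, 40.2, 37.7 and 45.96 CPM in bleomycin and 7.65, 15.6 and 3.83 CPM in LNP libraries.

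Of 11 tested ligands placed with resting tissue and epithelium, a mixed group that also holds Xcl1 and Ccl20, 1 rose and 2 fell. These are 9.09% and 18.2%, beside 15.2% and 18.5% of all tested genes. Cxcl16 (ENSMUSG00000018920, chr11:70344809-70350810, minus strand), a membrane-bound ligand of Cxcr6 on macrophages and epithelium, had 89.2, 109 and 76.3 CPM in control, 299, 265 and 246 CPM in bleomycin and 174, 181 and 221 CPM in LNP libraries. The 3 groups did not overlap, with LNP in the middle, and Cxcl16 rose by 1.56 ± 0.17 in bleomycin lung (edgeR adjusted p = 0.00028). Cx3cl1 (ENSMUSG00000031778, chr8:95498637-95509055, plus strand), the membrane-bound ligand of Cx3cr1, had 69.5, 109.5 and 78.8 CPM in control, 44.1, 42.4 and 36.3 CPM in bleomycin and 56.7, 48.4 and 34.8 CPM in LNP libraries. It fell by 1.07 ± 0.22 (edgeR adjusted p = 0.005). Ccl27a (ENSMUSG00000073888, chr4:41769467-41774197, minus strand), an epithelial ligand of Ccr10, fell by 1.32 ± 0.27 (edgeR adjusted p = 0.0051), with 4.70, 4.93 and 3.46 CPM in control, 1.38, 1.99 and 1.89 CPM in bleomycin and 2.89, 2.81 and 2.16 CPM in LNP libraries.

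Cxcl12, Cxcl14 and Cxcl17, 3 abundant ligands of resting tissue, were not called. Cxcl12 (ENSMUSG00000061353, chr6:117145496-117158328, plus strand), the stromal ligand of Cxcr4 and Ackr3, had 283, 300.2 and 241 CPM in control, 241, 332 and 388 CPM in bleomycin and 359.7, 424 and 288 CPM in LNP libraries, which overlapped in all 3 groups. The 95% interval of its bleomycin difference was -0.23 to 0.67. Cxcl14 (ENSMUSG00000021508, chr13:56436456-56444364, minus strand), an epithelial and stromal chemokine, had 142, 219 and 148 CPM in control, 387, 256 and 166 CPM in bleomycin and 158, 227 and 141 CPM in LNP libraries (bleomycin interval -0.02 to 1.36). Cxcl17 (ENSMUSG00000060188, chr7:25099478-25112311, minus strand), a mucosal chemokine, had 43.1, 53.9 and 46.6 CPM in control, 96.99, 64.7 and 43.6 CPM in bleomycin and 71.7, 69.7 and 82.8 CPM in LNP libraries (bleomycin interval -0.04 to 1.07). In Cxcl14 and Cxcl17 bleomycin replicate 3 lay within the control range and replicate 1 was the highest library. Without bleomycin replicate 3 both were called. Ccl20 (ENSMUSG00000026166, chr1:83094487-83096888, plus strand), the ligand of Ccr6, had 0.261, 0 and 0.229 CPM in control, 0.377, 0.388 and 0.257 CPM in bleomycin and 1.71, 1.77 and 1.20 CPM in LNP libraries, and was highest in the LNP group without overlap. Ccl25, Ccl28, Ccl27al and Xcl1 ranged from 0.0509 ± 0.0464 to 2.50 ± 0.219 CPM (SD, n = 3) in bleomycin lung and were not called.

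**Figure D2:**
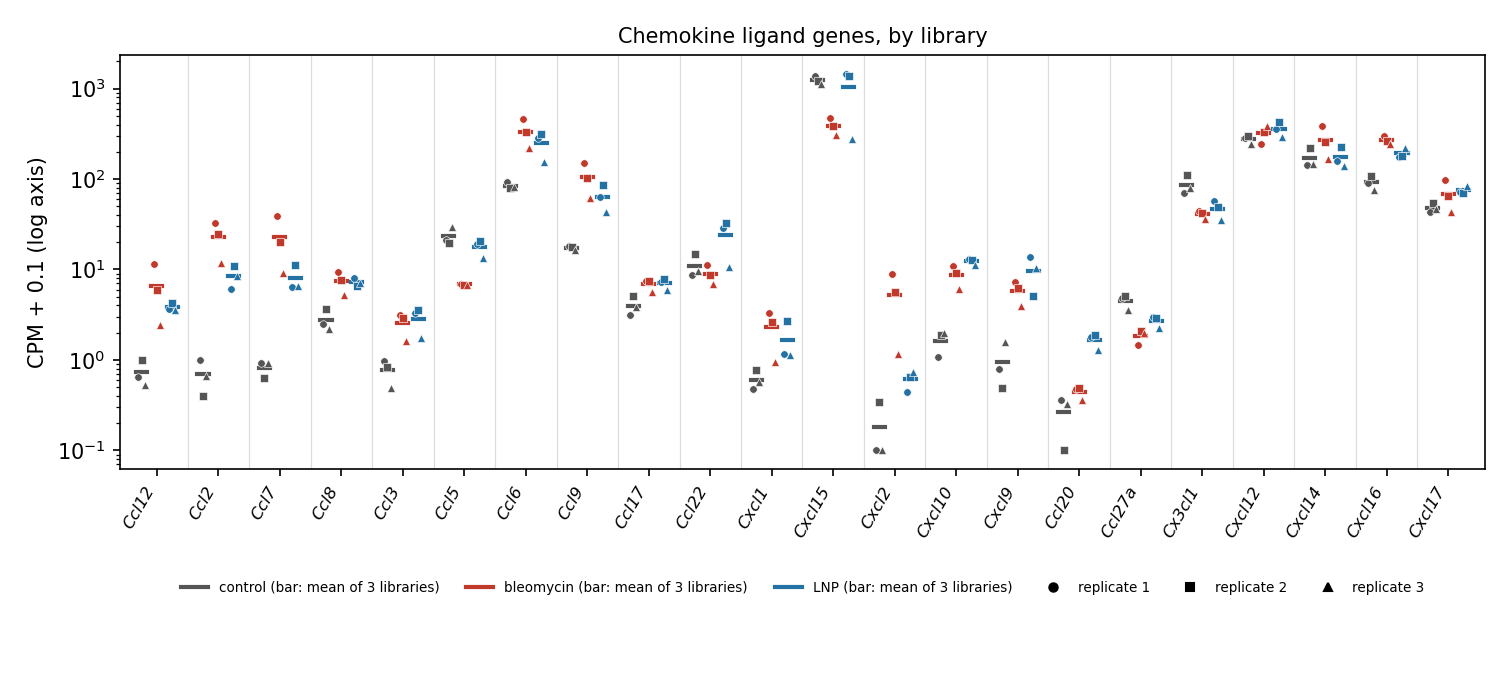
CPM plus 0.1 of 22 ligand genes on a log axis, by library, with symbols for replicates 1 to 3 and bars for the mean of 3 libraries in control, bleomycin and LNP lung. Ccl2, Ccl7 and Cxcl2 show the widest gaps between bleomycin and control, and Cxcl15 in LNP replicate 3 lies at 275 CPM against 1369 and 1446 CPM in the other LNP libraries.

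Receptors of myeloid cells went both ways: Ccr1 rose, Cx3cr1 and Cxcr4 fell, and Ccr2 and Cxcr1 were not called. Ccr1 (ENSMUSG00000025804, chr9:123762161-123768729, minus strand), which binds Ccl3, Ccl5, Ccl6, Ccl7 and Ccl9, had 10.5, 8.34 and 5.89 CPM in control, 73.2, 62.8 and 50.4 CPM in bleomycin and 16.4, 24.7 and 31.7 CPM in LNP libraries. The groups did not overlap, and Ccr1 rose by 2.92 ± 0.29, 7.55-fold (edgeR adjusted p = 0.00022). Ccr2 (ENSMUSG00000049103, chr9:123901987-123913594, plus strand), the receptor under which the 4 ligands above were listed, was not called. It had 20.5, 12.1 and 15.04 CPM in control, 12.2, 10.3 and 13.1 CPM in bleomycin and 29.4, 32.1 and 13.1 CPM in LNP libraries, and its bleomycin difference was -0.42 ± 0.32 (95% interval -1.13 to 0.29).

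Cx3cr1 (ENSMUSG00000052336, chr9:119877749-119898945, minus strand), the receptor of patrolling monocytes, many macrophages and cytotoxic lymphocytes, fell together with its ligand Cx3cl1. It had 16.8, 21.8 and 15.8 CPM in control, 2.82, 4.72 and 7.07 CPM in bleomycin and 25.1, 33.5 and 11.4 CPM in LNP libraries. The bleomycin libraries were lowest without overlap, and the fall was 1.89 ± 0.41 (edgeR adjusted p = 0.0074). Of 9 nonclassical monocyte markers, 1 rose and 3 fell. Their sums were 1702 to 2031 CPM in control, 2025 to 2475 CPM in bleomycin and 1437 to 1802 CPM in LNP libraries. The list thus went both ways, and the part of these markers in the fall of Cx3cr1 was not tested. Cxcr4 (ENSMUSG00000045382, chr1:128515936-128520030, minus strand), the receptor of Cxcl12 on leukocytes and endothelium, had 54.2, 61.8 and 52.5 CPM in control, 22.7, 28.4 and 33.6 CPM in bleomycin and 36.1, 32.3 and 32.8 CPM in LNP libraries. All treated libraries were below all control libraries, and the bleomycin fall was 0.99 ± 0.16 (edgeR adjusted p = 0.0016).

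Of 7 receptors carried mainly by lymphocytes, 5 fell and edgeR called none higher (none at an unadjusted p under 0.05, and none by DESeq2). Cxcr6 (ENSMUSG00000048521, chr9:123635540-123640825, plus strand), the receptor of Cxcl16 on resident T cells, had 4.68, 4.48 and 4.15 CPM in control, 1.13, 1.09 and 0.967 CPM in bleomycin and 5.03, 7.82 and 1.32 CPM in LNP libraries. Bleomycin lay below both other groups, and Cxcr6 fell by 2.06 ± 0.51 (edgeR adjusted p = 0.013) while its ligand rose. Cxcr3 (ENSMUSG00000050232, chrX:100775141-100777875, minus strand), the receptor of Cxcl9 and Cxcl10, had 3.33, 4.59 and 3.96 CPM in control, 1.69, 1.26 and 2.09 CPM in bleomycin and 5.46, 5.40 and 2.79 CPM in LNP libraries. It fell by 1.24 ± 0.32 (edgeR adjusted p = 0.016), also against the direction of its ligands. Ccr9 (ENSMUSG00000029530, chr9:123507504-123612522, plus strand), a gut and thymus homing receptor, had 0.816, 0.727 and 1.47 CPM in control and 0.377, 0.341 and 0.257 CPM in bleomycin, with 0.291, 0.622 and 0.505 CPM in LNP libraries (fall of 1.62 ± 0.47, edgeR adjusted p = 0.026). Ccr4 fell by 1.67 ± 0.52 (0.033) and Ccr6 by 4.73 ± 1.63 (0.049), from means under 1 CPM in control. Ccr10 and Ccr8 were not called, with differences of -1.52 ± 0.62 and 1.58 ± 1.03.

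The T cell and NK cell markers given beside Ccl5 moved in the same direction as these receptors, and all 8 B cell markers fell, from sums of 143.4 to 197.8 CPM in control to 16.6 to 17.8 CPM in bleomycin libraries. Their part in the falls of the receptors was not tested. Ccr3, the receptor of eosinophils, had at most 0.458 CPM in any library and did not reach the count filter, and 5 eosinophil markers summed to 2.32 to 7.08 CPM.

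All 3 atypical receptors changed in bleomycin lung. Ackr3 (ENSMUSG00000044337, chr1:90131702-90144473, plus strand), which removes Cxcl12 and is found on endothelium and stroma, had 56.7, 52.7 and 55.8 CPM in control, 466, 332 and 218 CPM in bleomycin and 89.99, 120.1 and 193 CPM in LNP libraries. The 3 groups did not overlap, and Ackr3 rose by 2.62 ± 0.32, 6.15-fold (edgeR adjusted p = 0.00052), so that Ackr3 and Cxcr4, the receptors that share Cxcl12, moved in opposite directions. Ackr2 (ENSMUSG00000044534, chr9:121727421-121740140, plus strand), a scavenger of inflammatory CC chemokines, had 59.5, 65.4 and 62.3 CPM in control, 88.1, 95.3 and 104 CPM in bleomycin and 41.1, 47.8 and 67.2 CPM in LNP libraries, a rise of 0.62 ± 0.17 (edgeR adjusted p = 0.023). Ackr4 (ENSMUSG00000079355, chr9:103961356-104004132, minus strand), a scavenger of Ccl19, Ccl21 and Ccl25, had 9.51, 15.4 and 10.9 CPM in control, 0.279, 0.745 and 0.574 CPM in bleomycin and 4.93, 2.63 and 1.46 CPM in LNP libraries. Its 3 groups did not overlap, and it fell by 4.48 ± 0.52, 22.3-fold (edgeR adjusted p = 0.0004). Of 11 endothelial markers, 2 rose and 8 fell, and their sum was 6280 to 7404 CPM in control, 4400 to 4790 CPM in bleomycin and 3125 to 5139 CPM in LNP libraries. Of 11 fibroblast markers, 2 rose and 6 fell, and their sum was 4320.0 to 5537 CPM in control, 5958 to 6907 CPM in bleomycin and 4107 to 6021 CPM in LNP libraries. The part of either list in the changes of the atypical receptors was not tested.

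**Figure D3:**
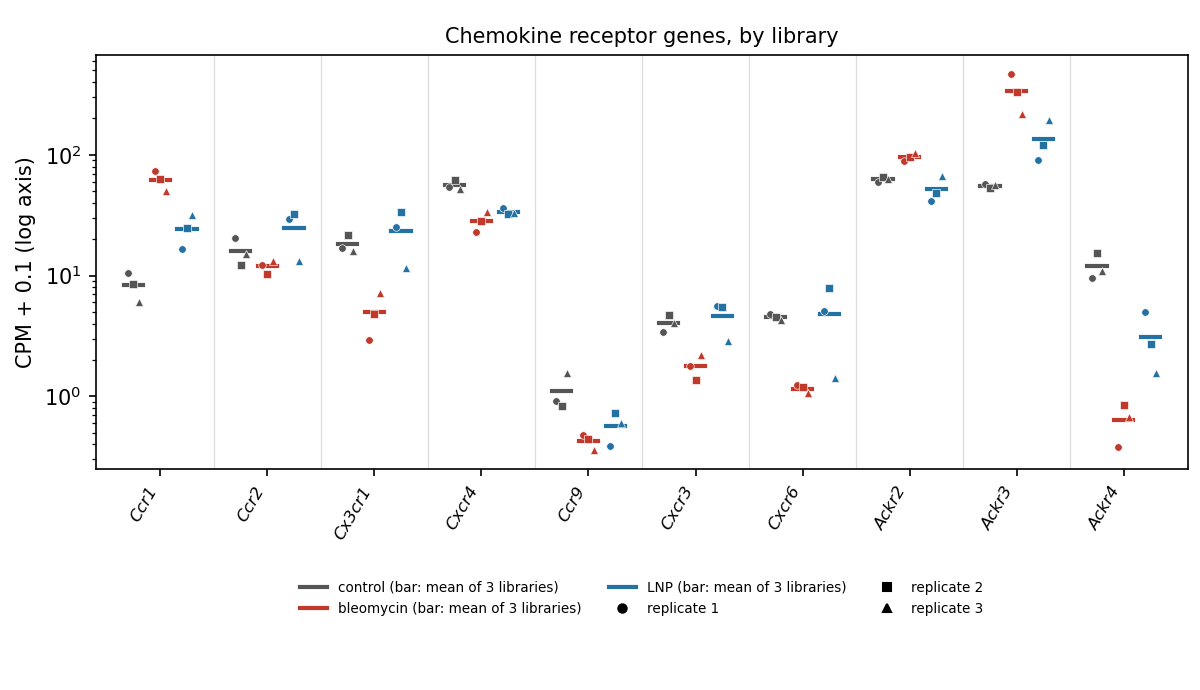
CPM plus 0.1 of 10 receptor genes on a log axis, by library, with symbols for replicates 1 to 3 and bars for the mean of 3 libraries in control, bleomycin and LNP lung. Ccr1 and Ackr3 lie higher and Cx3cr1, Cxcr3, Cxcr6 and Ackr4 lower in bleomycin than in control lung, and in LNP replicate 3 Ccr2, Cx3cr1, Cxcr3 and Cxcr6 are the lowest of the LNP group.

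Of the 30 calls, 21 held when any single library was left out. Cxcl15 was lost on leaving out any 1 of the 6 libraries compared (adjusted p from 0.052 to 0.08, log2 fold change from -1.84 to -1.55). Cxcl1 and Ccl17 were lost without control replicate 1 or 3 or bleomycin replicate 1 or 2, at adjusted p-values from 0.057 to 0.071 and from 0.089 to 0.11. Ackr2 was lost without control replicate 1 or 3 or bleomycin replicate 2 or 3 (0.067 to 0.078), and Cxcr3 without bleomycin replicate 1 or 2 (0.053 to 0.07). Ccr9 was lost without control replicate 3 or any bleomycin library (0.059 to 0.11). Ccr4 was lost without control replicate 1 or 2 or any bleomycin library (0.051 to 0.11). Ccr6 was lost on leaving out any library compared or LNP replicate 2 (0.054 to 0.14), with log2 fold changes from -8.26 to -4.0. The number of members lower went from 13 to 8 without bleomycin replicate 1 and to 7 without replicate 2, while the share of all genes called in either direction went from 33.7% to 20.6% and 20.4%. Some members were gained: Ccr8 was higher without bleomycin replicate 3 (2.16, 0.013), and without LNP replicate 3 Cxcl3 was higher (2.07, 0.04) and Ccr10 lower (-1.48, 0.048).

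The second comparison asked how bleomycin lung differed with the particles. It shares the bleomycin libraries with the first. Of 53 members tested, 6 were higher and 3 lower in LNP than in bleomycin lung (edgeR adjusted p), 9 in all, beside 4.28% and 1.87% of all tested genes and 6.16% in either direction. The median log2 fold change was 0.54 over members and 0.04 over all tested genes. Receptors held 7 of the 9 calls, 4 higher and 3 lower of 16 tested, and Ccl5 was the only ligand called of 32.

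Ccl5 was higher by 1.38 ± 0.21, 2.61-fold (edgeR adjusted p = 0.01), and by 1.55 without LNP replicate 3 (adjusted p = 0.00037). Its LNP libraries lay above all bleomycin libraries, and replicate 3 was the lowest of them. Of 13 T cell markers, 11 were also higher, with Cd3e at 1.97 ± 0.177 CPM (SD, n = 3) in the bleomycin group and 9.71 ± 2.04 CPM in the LNP group, and Lck at 4.23 ± 0.453 and 18.9 ± 3.40 CPM. Of 9 NK cell markers 2 were higher, Prf1 by 2.10 ± 0.40 and Eomes by 2.45 ± 0.48 (2.48 and 2.75 without LNP replicate 3). The part of these cells' RNA in the difference of Ccl5 was not tested.

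The lymphocyte receptors Cxcr6 and Cxcr3 were higher in LNP lung, by 2.15 ± 0.51 (edgeR adjusted p = 0.041) and 1.44 ± 0.33 (0.033). Leaving out LNP replicate 3 gave 2.60 (0.00012) and 1.70 (0.0016). In that replicate Cxcr6, at 1.32 CPM, was near the bleomycin range of 0.967 to 1.13 CPM. Cx3cr1 was higher by 2.26 ± 0.42 (edgeR adjusted p = 0.018), and by 2.59 without LNP replicate 3 (0.00052). Ccr2, which was not called (difference 1.07 ± 0.32, adjusted p = 0.079), was higher by 1.38 without that replicate (0.0016). Ccr4, at 2.01 ± 0.52 (0.053), also passed without it (2.28, 0.0098).

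Ccr1 was lower in LNP than in bleomycin lung by a log2 difference of -1.36 ± 0.28 (edgeR adjusted p = 0.024), and of -1.59 without LNP replicate 3 (0.0026). All 3 atypical receptors were called. Ackr3 differed by -1.33 ± 0.31 (0.037) and Ackr2 by -0.88 ± 0.18 (0.022). Ackr4 was higher by 2.49 ± 0.49 (0.021). Leaving that library out gave -1.68 (0.0021), -1.10 (0.00038) and 2.82 (0.001). In each of these 3 receptors LNP replicate 3 was the LNP library nearest to bleomycin.

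Ligands of Ccr2 were not called in LNP against bleomycin lung. Ccl2 differed by -1.44 ± 0.42 (95% interval -2.38 to -0.49, edgeR adjusted p = 0.075) and Ccl7 by -1.51 ± 0.46 (-2.54 to -0.48, 0.083). Ccl2 passed without LNP replicate 3 (-1.43, 0.049) and Ccl7 did not (-1.37, 0.078). Without bleomycin replicate 3 both were lower, at -1.75 (0.047) and -1.89 (0.035). Of the 4 listed Ccr2 ligands edgeR called none, with 2 lower at an unadjusted p under 0.05 and 2 lower by DESeq2. The share of all tested genes at that unadjusted p was not computed. Ccl8 and Ccl12 differed by -0.04 ± 0.28 and -0.80 ± 0.50, with intervals of -0.65 to 0.58 and -1.91 to 0.31, and by -0.01 and -0.74 without LNP replicate 3.

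Cxcl2 differed by -3.32 ± 1.04 (95% interval -5.65 to -0.99, edgeR adjusted p = 0.089), and by -3.52 without LNP replicate 3 (0.043). Cxcl1 differed by -0.49 ± 0.54 (-1.69 to 0.71), and by -0.26 without that library. Of 13 neutrophil markers, 6 were lower in LNP lung: S100a8 had 82.5 ± 25.9 CPM (SD, n = 3) in the bleomycin group and 9.50 ± 2.19 CPM in the LNP group, and Retnlg 111 ± 54.6 and 9.85 ± 0.947 CPM. None was called higher by edgeR with all libraries, but DESeq2 called 2 higher beside 8 lower. Camp was higher without LNP replicate 3 (2.77, edgeR adjusted p = 0.01). Neutrophil marker sums were 496.9 to 1091 CPM in bleomycin and 268.8 to 611 CPM in LNP libraries, no marker was at 0, and their part in the difference of Cxcl2 was not tested. Il1b was the NF-kB list gene called, at a log2 difference of -2.20 ± 0.41 (0.018), or -1.83 without that library. Cxcl15 differed by 1.41 ± 0.48 (0.11), and without LNP replicate 3 it was higher by 1.87 (8.7e-05).

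Cxcl10 and Cxcl9 were not called, at 0.51 ± 0.29 (95% interval -0.13 to 1.15) and 0.75 ± 0.48 (-0.33 to 1.83), or 0.59 and 0.71 without LNP replicate 3. For these CXCR3 ligands none passed at an unadjusted p under 0.05, and none by DESeq2. Ccl6, Ccl9 and Ccl3 differed by -0.40 ± 0.30, -0.71 ± 0.31 and 0.17 ± 0.42, and by -0.14, -0.49 and 0.44 without it. Cxcl16 differed by -0.49 ± 0.16 (0.1) and passed without LNP replicate 3 (-0.60, 0.02). Ccl22 differed by 1.45 ± 0.39 (0.058), and by 1.80 without that library (0.001), whose 10.6 CPM lay inside the bleomycin range while the other LNP libraries had 28.4 and 32.5 CPM. Of 11 dendritic cell markers, a list that holds Ccl22, 4 were higher. Ccl24 differed by -0.90 ± 0.59 (0.38) and was lower without LNP replicate 3 (-1.87, 0.02).

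The calls of this comparison depended on single libraries. Without LNP replicate 3, 10 members were higher and 7 lower, beside 14% and 10.7% of all tested genes, and all 9 members called with it were among them. Without bleomycin replicate 2 edgeR called no member, beside 0.475% of all tested genes. At an unadjusted p under 0.05, 13 were higher and 7 lower. The share of all tested genes at that threshold was not computed, so this count has no background beside it. Leaving out bleomycin replicate 1, LNP replicate 1 or LNP replicate 2 left Ccl5 as the 1 call. Ccl5 was lost only without bleomycin replicate 2 (adjusted p = 0.062, log2 fold change 1.38). The adjusted p of Ccr1, Cx3cr1, Ackr2, Ackr3, Ackr4, Cxcr3 and Cxcr6, where lost, ran from 0.052 to 0.14, with log2 fold changes of -1.37 to -1.14 for Ccr1, 1.91 to 2.24 for Cx3cr1 and 1.94 to 2.81 for Ackr4. Leaving out bleomycin replicate 3 lost Ackr2, Ackr4, Cxcr3 and Cxcr6 and gained Ccl2 and Ccl7, so that 4 members were lower in place of 3. Leaving out control replicate 2 gained Ccl20 (2.19, 0.022) and Cxcl2 (-3.32, 0.048). Each control library, left out, lost Ackr3 and Cxcr6, and control replicates 1 and 3 also Cxcr3. DESeq2 called 12 members higher and 6 lower, beside 10.5% and 6.07% of the genes it tested.

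The third comparison set LNP lung against saline lung, with the control libraries of the first comparison. Of 53 members 15 were higher and 3 lower, 18 in all, beside 4.95%, 3.08% and, in either direction, 8.04% of all tested genes, and the median log2 fold change was 0.64 against 0.0 over all tested genes. Of 32 ligand genes 11 were higher and 1 lower, and of 16 receptor genes 3 were higher and 2 lower. Without LNP replicate 3, 19 members were higher and 3 lower, beside 6.41% and 4.51% of all tested genes. DESeq2 called 20 members higher and 3 lower, beside 9.25% and 5.99%. Without control replicate 1 or control replicate 3, 8 members were higher and edgeR called none lower, beside 3.34% and 3.64% of all tested genes called in either direction. Without LNP replicate 2, 11 were called, all higher (5.02%), and without control replicate 2, 1 was lower.

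All 4 listed Ccr2 ligands were higher than in control. Ccl2 differed by 3.83 ± 0.48 on the log2 scale, 14.2-fold (edgeR adjusted p = 0.0023), where its bleomycin difference was 5.27 ± 0.51. Ccl7, Ccl12 and Ccl8 were higher by 3.46 ± 0.51 (0.0043), 2.57 ± 0.53 (0.018) and 1.42 ± 0.28 (0.015). Leaving out LNP replicate 3, the 4 differences were 3.87, 3.63, 2.66 and 1.48. Ccl12 and Ccl8 were lost without control replicate 1 or 3 (adjusted p 0.069 to 0.084). Of the 18 monocyte and macrophage markers 12 were higher.

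Both CXCR3 ligands were higher than in control. Cxcl10 in LNP lung was 7.95-fold its control level (log2 2.99 ± 0.31, edgeR adjusted p = 0.001) and Cxcl9 11.3-fold (log2 3.50 ± 0.54, 0.005). The log2 values without LNP replicate 3 were 3.10 and 3.49. Ccl9, Ccl6 and Ccl3 were higher by 1.87 ± 0.32 (0.008), 1.59 ± 0.31 (0.013) and 2.06 ± 0.44 (0.02), and without LNP replicate 3 by 2.13, 1.89 and 2.36. Ccl6 was lost without control replicate 1 or 3 (0.052 to 0.061) and Ccl3 without any control library or LNP replicate 2 (0.052 to 0.078). Cxcl16 was higher by 1.07 ± 0.17 (0.0052), and by 0.99 without LNP replicate 3.

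Ccl20, the Ccr6 ligand of epithelium, was higher by 3.24 ± 0.85 (edgeR adjusted p = 0.047) and by 3.44 without LNP replicate 3 (0.028). It was lost on leaving out any 1 of the bleomycin libraries, control replicate 1 or 3, or LNP replicate 1 or 2 (0.069 to 0.12). No ELR ligand was called by edgeR, although 3 were higher at an unadjusted p under 0.05 and DESeq2 called 2. No share of all tested genes at that unadjusted p was computed. Cx3cl1 was lower by a log2 difference of -0.88 ± 0.22 (0.035). It was lost on leaving out any library but LNP replicate 1 (0.051 to 0.083), with -0.67 (0.053) without LNP replicate 3. Members not called against control with all libraries but called without LNP replicate 3 were Ccl22 (1.53, 0.0046), Ccr2 (0.99, 0.015) and Cxcl3 (2.84, 0.041), all higher, and Ackr2 (-0.45, 0.048), which was lower. Ccl17 was called without it (0.98, 0.028) and without control replicate 2 (1.04, 0.04). Cxcl2, whose control libraries are then all at 0, was called without control replicate 2 (0.039), and Ccr8 without bleomycin replicate 3 (2.71, 0.012).

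Ccr1 was higher than in control by 1.56 ± 0.28 (edgeR adjusted p = 0.0092), and without LNP replicate 3 by 1.36. Ackr3 was higher by 1.29 ± 0.31 (0.033) and Ackr4 lower, at -1.99 ± 0.46 (0.029). Without LNP replicate 3 Ackr3 and Ackr4 differed by 0.97 and -1.62. Cxcr4 was lower, at -0.74 ± 0.16 (0.02), and at -0.68 without that library. Ackr3 was lost without any control library, bleomycin replicate 2 or LNP replicate 2 (0.059 to 0.11), Ackr4 without any control library or LNP replicate 2 (0.069 to 0.087), and Cxcr4 without control replicate 1 or 3 or LNP replicate 2 (0.054 to 0.07). The lymphocyte receptors were not called by edgeR, with 1 higher and 1 lower at an unadjusted p under 0.05, and DESeq2 called 1. Cxcr3 and Cxcr6 stood at 0.20 ± 0.32 (95% interval -0.51 to 0.91) and 0.09 ± 0.49 (-1.0 to 1.18), or 0.49 and 0.57 without LNP replicate 3.

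Many members lie side by side in the genome. On the deposited coordinates, whose build none of the sources used here names, 7 clusters held at least 3 members each. The 4 listed Ccr2 ligands sit on chromosome 11 within 144.2 kb (chr11:81926397-82070638) with Ccl11 and Ccl1. In bleomycin lung the Ccr2 ligands rose, and Ccl11, which lies between Ccl7 and Ccl12, had a difference of 0.31 ± 0.55 (95% interval -0.91 to 1.53). Further on, Ccl5, Ccl9, Ccl6, Ccl3 and Ccl4 share 138.9 kb (chr11:83416604-83555509), with Ccl5 lower, the next 3 higher and Ccl4 not called. The ELR cluster on chromosome 5 spans 146.6 kb (chr5:90907219-91053797), where Cxcl1 and Cxcl2 rose and Cxcl15 fell. Cxcl9, Cxcl10 and Cxcl11 share 44.1 kb of the same chromosome (chr5:92469206-92513344). Cx3cl1, which fell, lies between Ccl22, which was not called, and Ccl17, which rose, within 66.4 kb (chr8:95472218-95538664). In the receptor cluster on chromosome 9, Ccr9 and Cxcr6 fell, Ccr1 rose and Ccr2 was not called. Calls in both directions occurred in 4 of the 7 clusters.

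**Figure D4:**
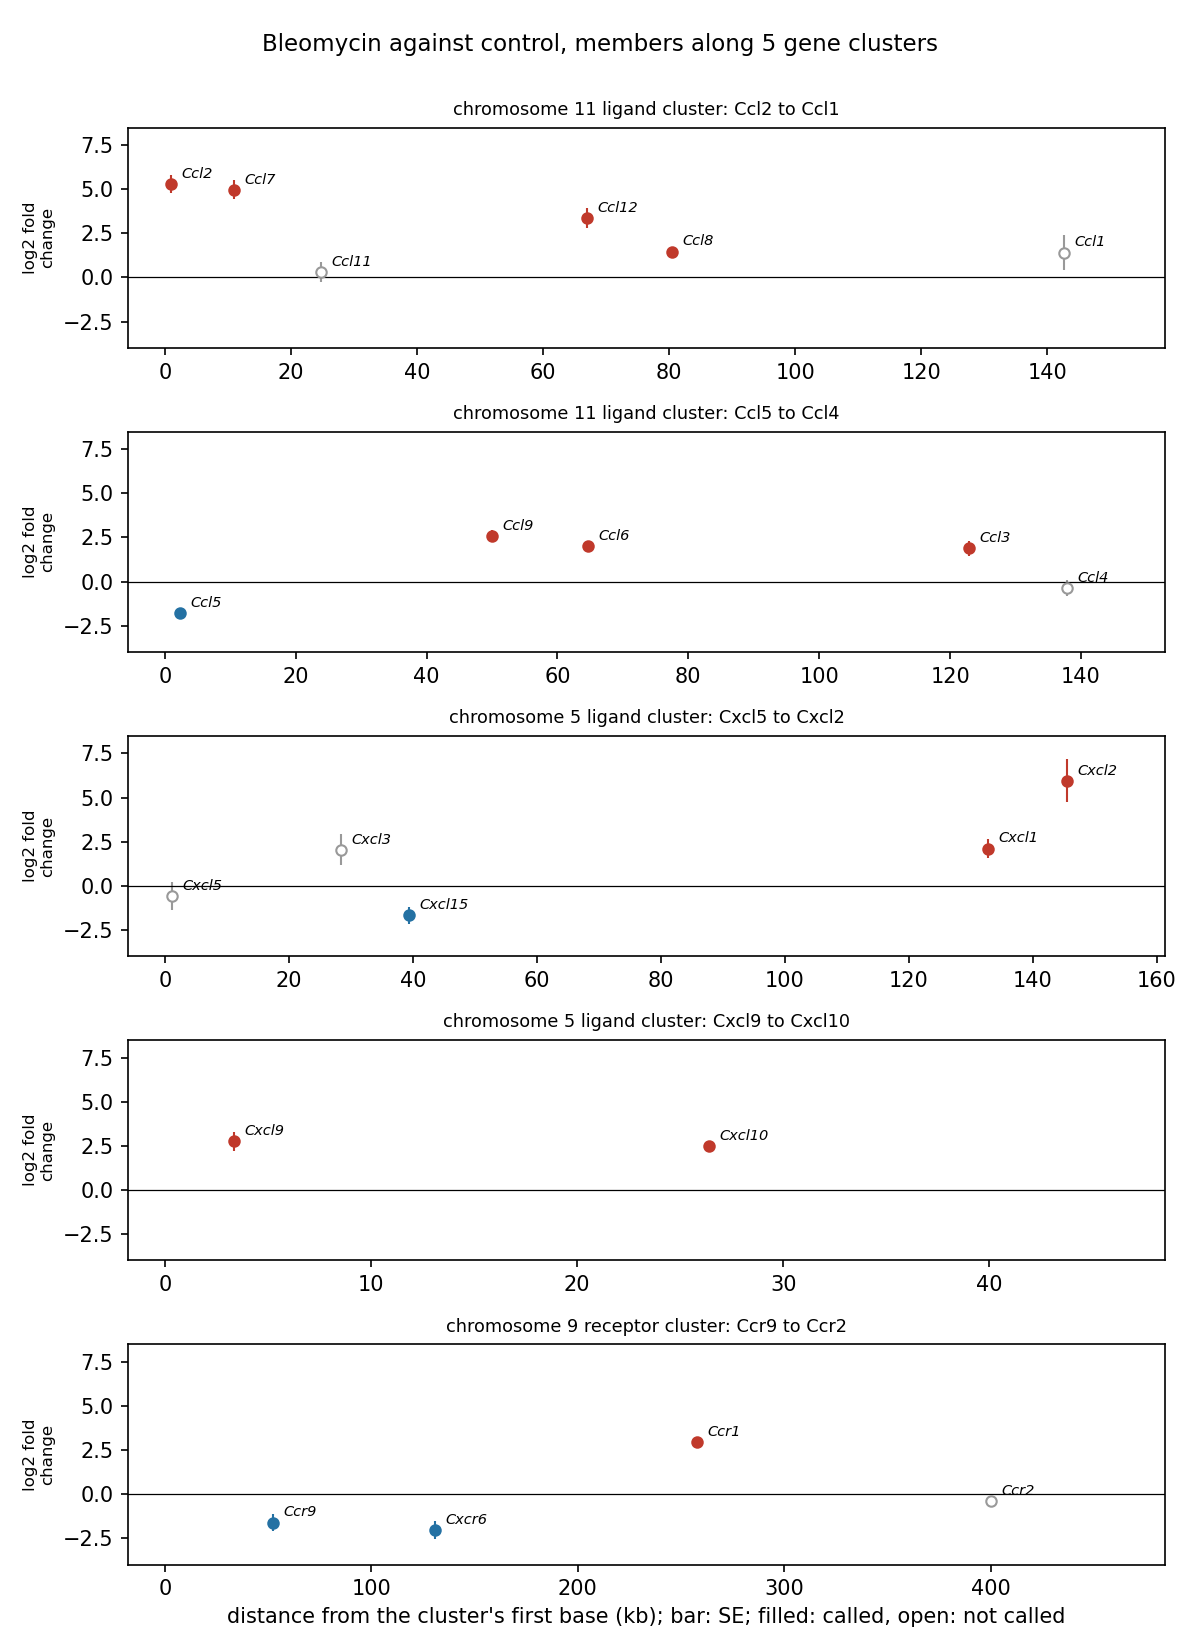
Log2 fold change in bleomycin against control lung with SE for tested members of 5 gene clusters, plotted against distance in kb from the first base of the cluster; filled points were called and open points were not. In the Ccl5 to Ccl4 cluster Ccl5 lies at -1.79 and its neighbour Ccl9 at 2.59.

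A RefSeq promoter window of 300 bases, from 250 before to 50 after the start, was matched for 39 of the 58 members. Ccl2, Ccl7 and Cxcl16, which rose in bleomycin lung, were among those without a window and were not searched. The NF-kB letters were present in 6 of 13 such members that rose in bleomycin lung (Ackr2, Ccl9, Cxcl1, Cxcl10, Cxcl2 and Cxcl9), in 2 of 11 that fell (Ccl27a and Ccr6) and in 4 of 12 not called. They were present in 19.4% of all 27025 genes with a window. TGANTCA, the AP-1 letters, was present in 3 of 13 that rose, 2 of 11 that fell and 8.97% of all genes. TTCNNNGAA, the STAT letters, was present in 1 of 13, 1 of 11 and 9.55%. TATAAA was present in 5 of 13, 4 of 11 and 15.7%. Both strands were searched. These are counts of letters in few genes, and members of a cluster share ancestry.

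Outside the family, 41 genes of chemokine signalling were tested, and 9 rose and 10 fell in bleomycin lung, with a median of 0.04. Over all tested genes 15.2% rose and 18.5% fell. Rgs16 and Rgs1, which switch off G proteins behind chemokine receptors, led the rises. Rgs16 had 1.09, 1.17 and 1.04 CPM in control, 21.1, 16.5 and 12.7 CPM in bleomycin and 8.65, 12.5 and 12.2 CPM in LNP libraries, a rise of 3.93 ± 0.25 (edgeR adjusted p = 4e-05). All bleomycin and LNP libraries lay above control. Rgs1 rose by 4.15 ± 0.59 (0.00091), and Pik3r5, a subunit of the PI3 kinase that chemokine receptors activate, by 1.27 ± 0.14 (0.00032). Grk3, a kinase that desensitises the receptors, fell by 1.77 ± 0.23 (0.00058). In LNP against bleomycin lung 6 were higher and 1 lower, beside 4.28% and 1.87% of all tested genes. Xcr1, the Xcl1 receptor of cross-presenting dendritic cells, had 0.147, 0.419 and 0.197 CPM in bleomycin and 5.08, 4.58 and 0.331 CPM in LNP libraries. LNP replicate 3 lay inside the bleomycin range, and Xcr1 was higher by 3.70 ± 0.86 (edgeR adjusted p = 0.037), or 4.24 without that library (0.00016). Dock2, which drives leukocyte migration, was higher by 0.71 ± 0.15 (0.029), and Prex1, a Rac activator, by 0.78 ± 0.18 (0.035). Rgs2, a regulator of G proteins, was lower, at -0.59 ± 0.14 (0.036). Without LNP replicate 3 these 3 differed by 0.80, 0.92 and -0.58. In LNP against control lung 4 were higher and 2 lower, beside 4.95% and 3.08% of all tested genes. The list also holds Pf4 and Ppbp, platelet chemokines whose symbols lie outside the naming rule, named here after their values were seen. Ppbp had 27.2, 49.2 and 30.6 CPM in control, 1.72, 3.66 and 4.47 CPM in bleomycin and 15.1, 8.62 and 1.25 CPM in LNP libraries and fell in bleomycin lung by 3.44 ± 0.74 (0.0066). Pf4 had 11.5, 22.5 and 14.96 CPM in control, 30.6, 30.4 and 21.3 CPM in bleomycin and 14.4, 11.1 and 16.2 CPM in LNP libraries.

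The 6 Ccl19 pseudogenes match the naming rule but are listed as copies of a ligand gene that was set aside, so reads could have been split among near-identical copies. Counts are also uncertain for 19 members that overlap another gene on the opposite strand, among them Cxcl10 (with Art3), Cxcl16 (Zmynd15), Cxcr6 (Fyco1) and Ackr4 (Acad11). Of the pseudogenes, Ccl19-ps2 (ENSMUSG00000121463, chr4:42070757-42072779, minus strand) had 0.441, 0.424 and 0.286 CPM in control, 0.279, 0.481 and 0.212 CPM in bleomycin and 1.97, 2.01 and 1.13 CPM in LNP libraries. It was higher in LNP than in bleomycin lung by 2.39 ± 0.45 (edgeR adjusted p = 0.019, and 2.62 without LNP replicate 3) and than in control by 2.15 ± 0.45 (0.018, and 2.41 without that library). Leaving out any bleomycin library, LNP replicate 1 or LNP replicate 2 lost the first of these calls (0.052 to 0.085), and control replicate 1 or 3 or LNP replicate 2 the second (0.06 to 0.08). Ccl19-ps5 fell in bleomycin lung by 2.57 ± 0.62 (0.011) and was lost without control replicate 3 or bleomycin replicate 2 (0.053 each). Ccl27b, Cxcl11, Ccr3, Ccr1l1 and Ccl19-ps6 did not reach the count filter. Ccl27b had 41 counts in control and 0 in bleomycin libraries, at least 13.9-fold higher in control when bleomycin is set to a group floor of 3 counts.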

How the data were processed

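Whole-lung RNA of 9 libraries was measured, 3 in each group. The authors deposited a table of read counts and FPKM values per gene and per transcript, per the file headers. Per the submitters' processing notes, fastp, StringTie and edgeR were used. The aligner, genome build and counting rule are not stated (not given in the sources used here). Per the labels the libraries marked strand, but whether counting used it is not stated. Whether reads of genes that overlap on opposite strands were told apart is therefore unknown, which touches 19 members, among them Cxcl10, Cxcr6 and Ackr4. Near-identical copies are uncertain too.

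Counts of all 9 libraries entered a single edgeR quasi-likelihood fit (edgeR 4.0.16 in R 4.3.3, TMM scaling, filterByExpr), which tested 20794 genes and left out 11877. A call is a Benjamini-Hochberg adjusted p under 0.05 over all tested genes, and "rose" or "fell" is written of calls. Counts at an unadjusted p have no share of all tested genes beside them and are not calls. Folds are log2 with SE and 95% interval, and CPM use the TMM-scaled library size. Levels are compared between genes in the FPKM that the authors deposited. On counts simulated for the 20794 genes, edgeR recovered 27% of 2-fold and 67% of 4-fold changes in bleomycin against control, with 3 false calls. It recovered 27% and 62% in LNP against bleomycin, with 6 false calls, and 17% and 63% in LNP against control, with 5. Replicates differed beyond counting noise (lowest chi-square over its degrees of freedom, 30.2). Called members whose higher group averaged 1 CPM or more, and members averaging 20 CPM or more in any group, are given in every library, and of other lists up to 4 called genes with the smallest p. A few genes are counted in totals but not reported here. Members and lists were chosen with earlier results of these data known. Alternatives were DESeq2 1.42.0, limma 3.58.1 on log2 FPKM with pseudocounts of 1 and 0.1, no filter, fits of 2 groups, a replicate block, a minimum fold of 2 and leaving out each library. Promoter windows are RefSeq's (GRCm38.p6). Scripts used Python 3.11.15, pandas 2.3.3 and matplotlib 3.10.9.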

Additional observations from a re-analysis of the deposited data

How the results depend on the processing

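Under DESeq2, RLE scaling, no count filter, a fit of the 2 groups compared, a replicate block, a minimum 2-fold change and limma on log2 FPKM, no call changed direction. In bleomycin against control 21 of 30 calls held on leaving out any library. Under all these other settings except the minimum 2-fold change, 22 held. Leaving out 1 library gave 21 to 32 members called, 14 to 19 higher and 7 to 14 lower, beside 20.4% to 42.6% of all tested genes. LNP against bleomycin lung was the least stable. DESeq2 called 18 members (12 higher, 6 lower), the fit of 2 groups 2 (2 higher, 0 lower), and limma on log2(FPKM + 1) without a filter 4 (0 lower). Leaving out 1 library gave 0 to 17 called, 0 to 10 higher and 0 to 7 lower, beside 0.475% to 24.7% of all genes. In LNP against control lung, 1 member was lower, in place of 3, in the fit of 2 groups, with a minimum 2-fold change and by limma without a filter. Leaving out 1 library gave 8 to 22 called, 8 to 19 higher and 0 to 3 lower, beside 3.34% to 10.9%. The cause of these shifts was not tested; fits without a library have fewer samples. With the replicate block 29 members were called in bleomycin against control, 3 in LNP against bleomycin (2 higher, 1 lower) and 15 in LNP against control (1 lower). Same-numbered libraries did not deviate together (r from -0.018 to 0.04), and the numbers were treated as sample names only. With so few libraries per group this cannot exclude a pairing, and the labels state none. Members under 1 CPM, such as Ccr6 and Cxcl2 in control, rest on few counts.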

Other observations

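Transcript counts gave a further view of the members. Of 29 members with over 1500 counts over the 9 libraries, 9 had 1 transcript in the table and 25 had a leading transcript with at least 90% of the gene's counts. Cxcl12 was an exception. Its leading transcript, ENSMUST00000073043, held 87.2% to 90.8% of the gene's counts in control lung. In bleomycin lung it held 58.2% to 68.1%, and in LNP lung 64.0% to 76.6%, so that both challenged groups lay below control while the gene's total overlapped in all 3 groups. Another Cxcl12 transcript, ENSMUST00000112866, held 0.59% to 4.02% in control lung. It held 5.3% to 31.0% with bleomycin and 9.97% to 18.9% with the particles. The main Cxcl10 transcript, ENSMUST00000038816, held 38.3% to 84.6% of the few control counts. It held 95.7% to 98.8% with bleomycin and 96.3% to 99.4% with the particles. How the authors split reads among transcripts is not stated, and these shares were not tested.

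Some members below the count filter had few counts. Cxcl11, the third CXCR3 ligand gene, is annotated with a loss-of-function transcript (protein_coding_LoF). It had 0 counts in every control library, 0, 6 and 3 in bleomycin and 12, 0 and 8 in LNP replicates 1 to 3. Its RNA was thus counted in both challenged groups, each with 1 library at 0, and these few counts do not show that a working ligand was made. Its 20 counts in LNP lung are at least 7.17-fold higher than control when control is set to a group floor of 3 counts. Ccl19-ps6 had 23 counts in LNP and 0 in bleomycin libraries, at least 8.39-fold higher by the same floor. Ccr1l1 had 7 counts in LNP libraries and 0 in both other groups.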
